A study of Mus musculus with 9 samples.

Results

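The cytosolic ribosomal protein genes encode the proteins of the ribosome. Members were chosen by symbol, as every symbol starting with Rpl or Rps and followed by a number with at most a paralogue suffix, together with Rplp0, Rplp1, Rplp2 and Rpsa. Of 38197 symbols deposited, 87 had such a name, 4 of these (Rps12l1, Rps3a2, Rps3a3 and Rps4y2) are annotated as pseudogenes and were left out, and 83 members remained, 50 of the large and 33 of the small subunit. The cells were E14.1 mouse embryonic stem cells (ESCs) of strain 129 and wild-type genotype. All 9 libraries came from cultures turned into ventral hindbrain neural stem cells (NSCs) by retinoic acid together with the Smoothened agonist SAG, and then sorted on magnetic beads for the progenitor surface protein prominin-1. Groups differed in time alone, at 4.5DDC, 5.5DDC and 6.5DDC (days in differentiation conditions), with 3 replicates each, and the sample labels also give these times as 4, 5 and 6 days. All cells derive from 1 ESC line, and nothing in the labels says that replicates are separate cultures, so p-values measure the spread between these samples, which may be technical.

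Each ribosome carries 1 copy of nearly every ribosomal protein, and cells keep their synthesis in balance largely through translation. The mRNAs start with a run of pyrimidines, the TOP motif, through which the growth regulator mTOR and the RNA-binding protein Larp1 control their translation. Most members have many processed pseudogenes and a few have an expressed paralogue used in testis, muscle or stress. NSCs that divide rapidly make many ribosomes, and nucleolar biogenesis factors assemble them.

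Copies limit which short reads belong to 1 gene alone. The coding sequence of each of 82 members annotated in GENCODE was cut into windows of 50 bases, the length of a read, and each window was looked up in the annotated transcripts of every other gene. In 29 members no window was unique to the gene, and in 3 none was shared. The windows nearest the middle of the coding sequence that lie in a single exon show both cases. That of Rps6, the target of S6 kinase, also occurs in 1 other gene, that of Rps3a1 occurs in 4 other genes, and that of Rps27l occurs in none. All are coding bases on GRCm38, given 5′ to 3′ on the strand of the gene.
Rps6 (minus strand, chr4:86855964-86856013): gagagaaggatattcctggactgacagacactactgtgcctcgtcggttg
Rps3a1 (minus strand, chr3:86139182-86139231): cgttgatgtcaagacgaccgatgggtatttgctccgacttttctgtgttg
Rps27l (plus strand, chr9:66947587-66947636): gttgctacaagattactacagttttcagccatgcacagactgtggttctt

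Paralogues inside the set were easier to tell apart. Rpl39 and Rpl39l have coding sequences of equal length that differ at 23 of 153 bases, with no identical stretch longer than 38 bases. Rps27 and Rps27l differ at 60 of 252 bases, with no identical stretch longer than 11 bases, so no read of 50 bases in the coding sequence fits both exactly. The pair of Rps27 is printed because its members behaved differently in the counts. Capitals mark the bases at which the sequences differ.
Rps27 (minus strand, spliced from chr3:90212522-90213651): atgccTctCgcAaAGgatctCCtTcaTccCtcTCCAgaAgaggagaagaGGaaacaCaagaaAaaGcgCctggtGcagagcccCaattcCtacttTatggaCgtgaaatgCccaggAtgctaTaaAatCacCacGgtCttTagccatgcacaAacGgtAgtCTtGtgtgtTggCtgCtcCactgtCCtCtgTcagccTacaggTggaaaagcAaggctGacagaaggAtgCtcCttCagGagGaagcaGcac
Rps27l (plus strand, spliced from chr9:66946086-66949516): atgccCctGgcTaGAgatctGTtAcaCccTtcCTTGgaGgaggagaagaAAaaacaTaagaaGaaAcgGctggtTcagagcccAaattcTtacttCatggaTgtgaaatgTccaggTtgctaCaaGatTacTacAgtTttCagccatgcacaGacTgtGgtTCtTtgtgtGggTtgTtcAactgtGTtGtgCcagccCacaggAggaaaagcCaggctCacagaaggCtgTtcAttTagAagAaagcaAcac
Over the aligned coding bases 130 of 153 were identical in Rpl39 and Rpl39l, and identity was 84.7% for Rpl10 and Rpl10l, 76.2% for Rps27 and Rps27l, 73.0% for Rpl3 and Rpl3l, 66.9% for Rpl22 and Rpl22l1 and 50.2% for Rpl7 and Rpl7l1.

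Counts and FPKM gave different pictures of the same genes. Rps6 had 14, 14 and 5 counts at 4.5DDC, 47, 17 and 11 at 5.5DDC and 12, 11 and 14 at 6.5DDC. Its FPKM were 292, 361 and 282, then 294, 266 and 261, then 299, 233 and 253. FPKM are scaled by transcript length and library size, and CPM, the counts scaled to a common library total, by library size alone, so mean CPM over mean FPKM gives the length over which reads would have been counted. This apparent length was 3.61 bases for Rps6, whose coding sequence has 747 bases. It was 1381 bases for Rpl4, a protein of the exit tunnel with 1257 coding bases, and 1411 bases for Rps3, a protein of the mRNA entry with 729. Relative to FPKM, the count table thus held far less signal for Rps6 than for Rpl4 and Rps3. The totals and lengths used for the deposited FPKM were not checked, so the apparent length is a relative measure.

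The apparent length was under 0.1 times the coding length in 26 of 82 members (31.7%) and in 18 of 10649 other protein-coding genes with a mean of at least 50 counts (0.169%). Its median ratio to the coding length was 0.259 in the members and 1.87 in the other genes. The members did not have to reach that mean of counts, and the filter removes other genes short of counts. These shares and medians are therefore not a like comparison, and no excess in the members is drawn from them. Across the members the ratio went with the share of unique windows, with a Spearman rho of 0.67 over 82 genes that are not independent. The median ratio was 0.0703 in the 29 members without a unique window and 1.02 in the 15 in which at least 50% of windows were unique. Rpl15, Rpl27a and Rpl41 had no unique window and ratios of 2.13, 1.20 and 1.16. The excluded pseudogene Rps3a3 had between 1730 and 4045 counts per library, and its parent gene Rps3a1 had between 8 and 69. How reads that fit several places were counted is not given in the sources used here, and their part in this difference was not tested.

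**Figure D1:**
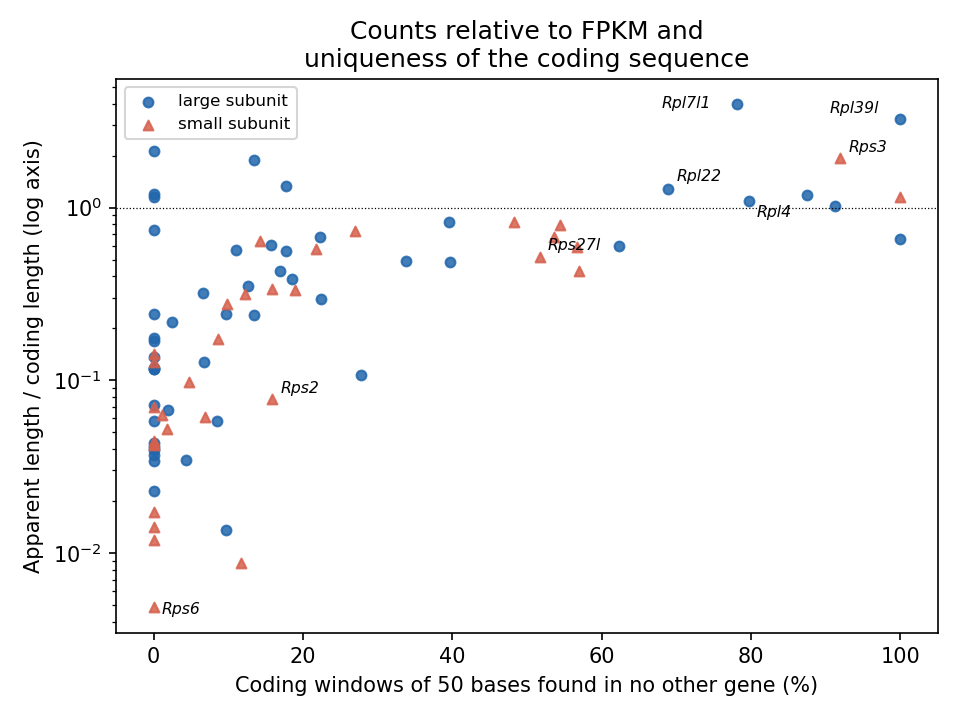
Ratio of apparent to coding length (log axis) against the percentage of 50-base coding windows found in no other gene, for 82 ribosomal protein genes, with circles for the large and triangles for the small subunit. The dotted line marks equal lengths, with Rps6 at the bottom left and Rps3 and Rpl39l at the right.

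The mean level of the members over the 9 libraries had a median of 235 FPKM, and 64 of the 83 members were at 100 FPKM or more. The highest were Rpl13a, which when released from the ribosome silences the translation of inflammatory mRNAs, at 1422 FPKM, Rpl7 at 1001 and Rps4x, the X-linked small subunit protein, at 945. The lowest were the paralogues Rpl3l of muscle at 0.0371 FPKM, Rpl10l of testis at 0.316 and Rpl39l at 4.20. No member was without a count, but Rps12l2, a symbol that matched neither annotation, had 1 count in all 9 libraries together at 27.4 to 108 FPKM. Rps12l2, Rpl3l, Rpl10l, Rpl29 (0 to 7 counts per library at 7.23 to 26.4 FPKM) and Rps29 (1 to 18 counts at 59.5 to 212 FPKM) did not pass the filter on low counts and did not enter the main count test.

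Levels differed more between members than between time points. Of the 81 members at a mean of at least 1 FPKM, 48 kept their highest library under 2 times their lowest. Rpl23 was the most even, between 750 and 865 FPKM, a range of 1.15-fold. Rplp1 was the least even, between 33.8 and 382 FPKM, a range of 11.3-fold, and 19 members ranged over more than 3-fold.

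As a group the members took 0.740% ± 0.117 of the counts at 4.5DDC, 0.740% ± 0.129 at 5.5DDC and 0.637% ± 0.0430 at 6.5DDC (SD, n = 3 each). Single libraries gave 0.692%, 0.873% and 0.654% at 4.5DDC, 0.889%, 0.670% and 0.662% at 5.5DDC and 0.657%, 0.588% and 0.667% at 6.5DDC. The time points overlapped, and replicate 2 of 4.5DDC and replicate 1 of 5.5DDC stood above the other 7 libraries. Of the summed FPKM the members took 3.84% ± 0.545, 4.01% ± 0.746 and 3.44% ± 0.284 (SD, n = 3 each). In bulk RNA, fewer cells of a type and less RNA per cell cannot be told apart.

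The question for time was whether any member changed as the NSCs aged. From 4.5DDC to 5.5DDC none of the 78 members that passed the filter on low counts changed in the quasi-likelihood test of edgeR (adjusted p under 0.05, Benjamini-Hochberg), where 11 of all 14742 genes (0.0746%) did. From 5.5DDC to 6.5DDC again none changed, against 33 genes (0.224%). With the replicate block none changed in either interval, against 1.44% and 1.32% of all genes. An unadjusted p under 0.05 in edgeR was reached by 5 members in the first interval, against 15.4% of all genes, and by 24 in the second, against 18.5%. DESeq2 called 2 in each, Rpl35 and Rps27 higher in the first, against 3.36% of all genes, and Rpl35 and Rpsa lower in the second, against 4.49%. From 4.5DDC to 6.5DDC 1 of 78 members, Rps2, fell, while 18.7% of all genes changed, 1358 of them higher and 1405 lower. Over this span 52 members had a negative and 26 a positive fold change, where 49.8% of all genes were negative. The median log2 fold change of the members was −0.24, beside 0.0040 over all genes, and ran from −0.31 to −0.16 when single libraries were left out. The medians of the shorter intervals were −0.0022 and −0.41, and the latter was −0.21 on log2(FPKM + 1) and −0.075 in the 27 members whose apparent length was at least 0.5 times the coding length. Leaving out single libraries, the first took both signs, from −0.13 without replicate 1 of 5.5DDC to 0.20 without replicate 2 of 4.5DDC, and the second was −0.12 without replicate 1 of 5.5DDC. The 2 subunits gave −0.34 (large, 47 tested) and −0.14 (small, 31 tested) over the whole span. On log2(FPKM + 1) they gave −0.27 (48 tested) and −0.26 (33 tested), without that gap.

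Rps2, which lines the channel where mRNA enters the small subunit, lies on GRCm38 at chr17:24718116-24721929. Its FPKM were 80.9, 120 and 85.5 at 4.5DDC, 78.4, 64.7 and 68.1 at 5.5DDC and 59.3, 36.2 and 47.8 at 6.5DDC. Every library of a later time point was below every library of an earlier one. The means were 95.5 ± 21.5, 70.4 ± 7.12 and 47.8 ± 11.6 FPKM (SD, n = 3 each). The counts were 98, 99 and 75, then 164, 46 and 56, then 28, 42 and 65, on libraries that differ in depth. Over the whole span its log2 fold change was −1.14 (SE 0.33, edgeR adjusted p = 0.0386), and −0.99 (SE 0.21, limma adjusted p = 0.0186) on log2(FPKM + 1). The replicate block gave an edgeR adjusted p of 0.0405, and over 23 alternatives the adjusted p ran from 0.0135 to 0.138, with 14 of them under 0.05. It did not pass without replicate 2 or 3 of 4.5DDC, replicate 2 or 3 of 5.5DDC or replicate 1 or 2 of 6.5DDC, nor with no filter, with limma voom or in a fit of the 6 libraries compared. Of the coding windows of Rps2 15.9% were unique, and its apparent length was 0.0777 times the coding length.

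Some settings called more members over the same span. The replicate block called Rps2, Rpsa and Rpl10a, where it called 23.2% of all genes. limma on log2(FPKM + 1) called Rps2 alone of 81 members, against 16.2% of all genes. Offsets for GC content called 8 members, 7 of them lower, against 23.5%, and DESeq2 called 13, 10 of them lower, against 24.9%. No member passed without replicate 2 of 4.5DDC, where 7.61% of all genes did, without replicate 2 of 6.5DDC (7.56% of all genes) or without replicate 2 or 3 of 5.5DDC (13% and 13.4%). Without replicate 3 of 4.5DDC 7 passed, against 13.4% of all genes, all lower and Rplp0, Rplp1 and Rpsa among them. Without replicate 1 of 5.5DDC 5 passed, against 20.9%. In each of the fits without replicate 1 of 4.5DDC, replicate 1 of 6.5DDC or replicate 3 of 6.5DDC 3 passed, against 14.8%, 20.7% and 13.9% of all genes.

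**Figure D2:**
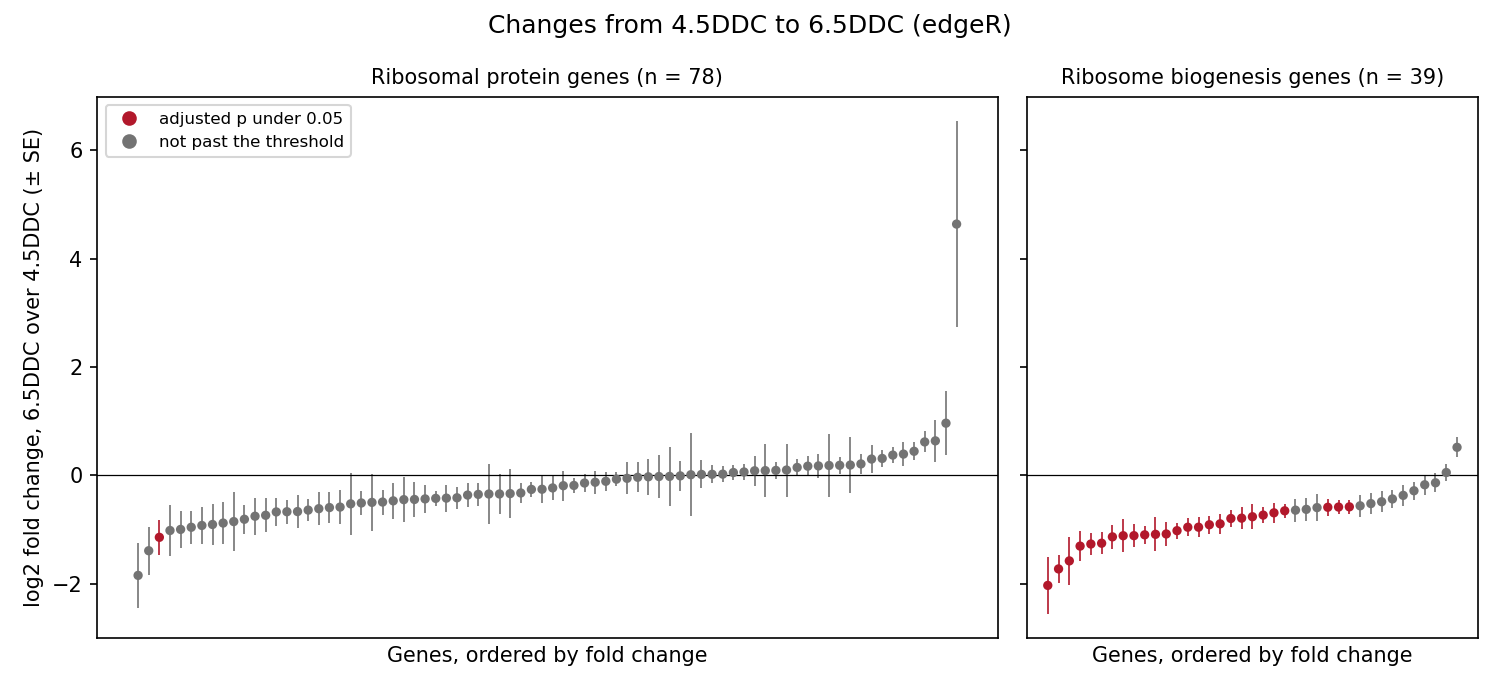
log2 fold change from 4.5DDC to 6.5DDC with its SE for 78 ribosomal protein genes and 39 ribosome biogenesis genes, each ordered by fold change, with genes past an adjusted p of 0.05 in red (edgeR). A single ribosomal protein gene, Rps2, is red on the left, and 26 genes, all below 0, are red on the right. The rightmost point on the left is Rps27, at 4.64, which was 3.07 with the replicate block and 0.44 on log2(FPKM + 1).

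Counted without a test, the FPKM of 4.5DDC and 6.5DDC did not overlap in 13 of 81 members, 9 lower and 4 higher at 6.5DDC, where this held for 34.5% of all 15230 genes. From 4.5DDC to 5.5DDC 7 members did not overlap, all lower, against 24.1% of genes. From 5.5DDC to 6.5DDC 23 did not overlap, 17 lower and 6 higher, against 25.2%. Rps2 and Rpl10, which joins the subunits late in assembly, were lower without overlap in each of these comparisons. Rpl10 had 252, 295 and 253 FPKM at 4.5DDC, 248, 250 and 231 at 5.5DDC and 222, 225 and 223 at 6.5DDC. These groups are separate but close, and its log2 fold change over the span was −0.51 (SE 0.21, edgeR adjusted p = 0.122).

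The stalk proteins, which recruit elongation factors to the large subunit, had lower mean levels at 6.5DDC and varied strongly within a time point. Rplp0 had 332, 524 and 217 FPKM at 4.5DDC, 410, 284 and 252 at 5.5DDC and 179, 136 and 249 at 6.5DDC. Rplp1 had 173, 382 and 70.1, then 286, 147 and 100, then 51.7, 33.8 and 93.4. Rplp2 had 80.7, 142 and 51.9, then 138, 81.1 and 62.8, then 43.4, 29.8 and 67.3. In each of the 3 genes replicate 2 was the highest library of 4.5DDC and the lowest of 6.5DDC, and the groups of 4.5DDC and 6.5DDC overlapped. The log2 fold changes over the span were −0.81 (SE 0.27), −1.85 (SE 0.60) and −0.74 (SE 0.32), with edgeR adjusted p-values of 0.0602, 0.0582 and 0.127. With offsets for GC content Rplp0 and Rplp1 passed in edgeR, at adjusted p-values of 0.0403 and 0.0454, and with offsets and the replicate block Rplp0 passed and Rplp1 did not. Without replicate 2 of 4.5DDC the 3 fold changes were −0.51, −1.11 and −0.40.

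Rpsa, a small subunit protein of the mRNA exit that was first described as a laminin receptor precursor, had 168, 245 and 114 FPKM at 4.5DDC, 204, 142 and 126 at 5.5DDC and 95.0, 69.7 and 106 at 6.5DDC. All 3 libraries of 6.5DDC lay below those of both earlier time points. Its log2 fold change from 4.5DDC was −1.39 (SE 0.44, edgeR adjusted p = 0.0542, and 0.0324 with the replicate block). Rpl10a, a protein reported in only some ribosomes, had −0.92 (SE 0.35), with an edgeR adjusted p of 0.0906 that became 0.0126 with the block. Its FPKM were 187, 265 and 163 at 4.5DDC and 183, 106 and 142 at 6.5DDC, which overlap. No coding window of Rpl10a was unique, and its apparent length was 0.116 times the coding length.

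Rpl5 and Rpl11 bind the 5S RNA and, when free, restrain Mdm2 and so stabilize p53. Rpl5 had 321, 354 and 343 FPKM at 4.5DDC, 333, 288 and 297 at 5.5DDC and 345, 364 and 322 at 6.5DDC. The 3 time points overlapped, with a log2 fold change over the span of 0.31 (SE 0.16, edgeR adjusted p = 0.203). Rpl11 had 436 ± 68.3, 440 ± 71.0 and 362 ± 58.3 FPKM (SD, n = 3 each) and a log2 fold change of −0.35 (SE 0.22, edgeR adjusted p = 0.276). From 5.5DDC to 6.5DDC the fold changes were 0.42 (SE 0.16) for Rpl5 and −0.52 (SE 0.22) for Rpl11, with unadjusted edgeR p-values of 0.0283 and 0.0389 and adjusted ones of 0.228 and 0.248. On log2(FPKM + 1) they were 0.17 and −0.28, and neither reached an unadjusted p under 0.05 in limma.

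Among the paralogues, Rps27l, a target of p53, and Rpl7l1, a nucleolar relative of Rpl7, were lower in every library of 6.5DDC than of 4.5DDC. Rps27l had 368, 541 and 533 FPKM at 4.5DDC, 294, 336 and 281 at 5.5DDC and 357, 315 and 191 at 6.5DDC, with most of the drop in mean by 5.5DDC. Its log2 fold change over the span was −0.67 (SE 0.23, edgeR adjusted p = 0.0643, and 0.0241 with offsets for GC content). Rpl7l1 had 43.0, 49.9 and 43.4, then 33.5, 38.1 and 36.4, then 39.0, 31.8 and 30.6 FPKM, a log2 fold change of −0.42 (SE 0.15, edgeR adjusted p = 0.0684, and 0.0196 with the offsets). Neither passed in the main edgeR fit or with the replicate block. With library totals alone both passed, as they did in DESeq2, in limma voom and without replicate 1 of 6.5DDC. Rps27l also passed without replicate 1 of 4.5DDC.

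Rpl22l1, which replaces Rpl22 when that protein is lacking, had 116, 144 and 188 FPKM at 4.5DDC, 174, 109 and 93.7 at 5.5DDC and 195, 160 and 114 at 6.5DDC. It overlapped at all times, with a log2 fold change of 0.09 (SE 0.28, edgeR adjusted p = 0.852). Rpl22 had 555 ± 16.1, 494 ± 58.0 and 485 ± 14.4 FPKM (SD, n = 3 each), and its fold change was 0.19 (SE 0.16) on counts and −0.20 on log2(FPKM + 1), so the tables differ in its direction. Rpl39l had 4.82 ± 1.71, 4.72 ± 2.83 and 3.05 ± 2.04 FPKM (SD, n = 3 each), where Rpl39 had a mean of 173 FPKM over all libraries. Rpl3l had 0 to 2 counts and Rpl10l 0 to 11 counts per library, where a count of 0 allows up to 3 counts, 0.118 to 0.271 CPM by library.

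The 18 members listed for a known role had a median log2 fold change of −0.26 over the span, 12 of them negative, between −1.39 and 0.96. Of these 1, Rps2, passed in edgeR (5.56%, beside 18.7% of all genes), or 3 with the replicate block (16.7%, beside 23.2%). The log2 fold change was −0.34 (SE 0.37) for Rps19, the gene most often mutated in Diamond-Blackfan anaemia, −0.26 (SE 0.14) for Rps20, whose mutation darkens the skin, and 0.09 (SE 0.15) for Rpl24 of the Belly spot and tail mouse. Rpl38, needed for the translation of certain Hox mRNAs, had −0.34 (SE 0.46) on only 8 to 52 counts per library, and −0.0024 without replicate 3 of 4.5DDC. Rpl27a, whose mutation gives the ataxic sooty foot mouse, had the opposite sign, at 0.62 (SE 0.19, edgeR adjusted p = 0.0522). It had 102, 125 and 99.3 FPKM at 4.5DDC, 137, 99.9 and 89.5 at 5.5DDC and 155, 106 and 115 at 6.5DDC, which overlap, and passed in 9 of 23 alternatives, with a fold change of 0.38 without replicate 1 of 6.5DDC. Other values were −0.07 (SE 0.13) for Rpl4, −0.14 (SE 0.16) for Rps3, −0.34 (SE 0.56) for Rpl3 of the peptidyl transferase centre, −0.26 (SE 0.26) for the ubiquitin fusion Rps27a, 0.96 (SE 0.59) for Rps25, used by viral entry sites, and 0.09 (SE 0.48) for Rps6. That of Rps25 was 0.068 without replicate 1 of 6.5DDC. Mean FPKM went from 417 at 4.5DDC to 455 at 6.5DDC for Rps27a and from 311 to 262 for Rps6, so the tables differ in their direction. With 1 library left out at a time, Rpl24 ran from 0.017 to 0.20 and Rpl4 from −0.17 to −0.016. Rps3 ran from −0.22 to −0.071 and Rps27a from −0.41 to −0.12. Each of these kept its sign in counts, while Rps6 ran from −0.25 to 0.51. Of the members named here, Rps2 alone passed in the main edgeR fit.

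**Figure D3:**
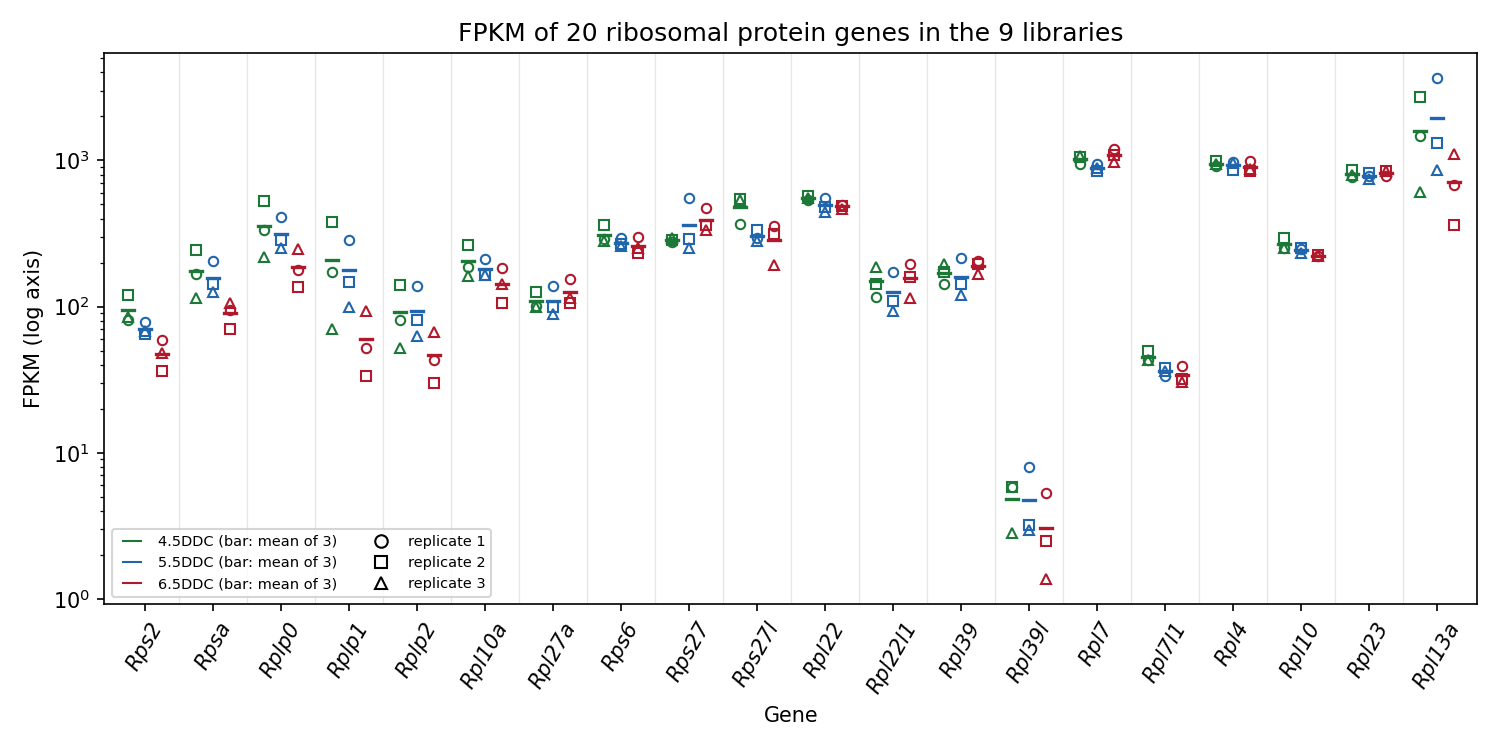
FPKM (log axis) of 20 ribosomal protein genes in each of the 9 libraries, with colours for the time points, symbols for the replicate numbers and bars for the means of 3. Rps2 steps down without overlap from 4.5DDC to 6.5DDC, Rpl23 and Rpl4 are level, and Rplp1 and Rpl13a spread widely within each time point.

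Within time points the SD of log2(FPKM + 1) had a median of 0.28 in 81 members and 0.25 in 15149 other genes. The spread over libraries had a form shared by most members. The first principal component of log2(FPKM + 1), each member centred on its mean but not scaled, held 82.2% of the variance of 81 members. Members that vary widely weigh most in it. The loading, the weight of a member on this component, was positive in 64 of the 81, and the others did not share its direction. Replicate 2 of 4.5DDC was the highest library for 45 of 81 members and replicate 1 of 5.5DDC for 19. Replicate 2 of 6.5DDC was the lowest library for 49. The component and these counts were not computed over all genes, so nothing particular to the members is drawn from them. Rpl13a shows the extremes, with 1464, 2726 and 609 FPKM at 4.5DDC, 3663, 1321 and 859 at 5.5DDC and 685, 362 and 1107 at 6.5DDC, so that libraries of the same time differed by up to 4.48-fold.

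The form went with base composition. GC content of the coding sequence ran from 39.9% to 61.6% in the members (median 52.6%), beside a median of 51.8% in the other protein-coding genes. Across 80 members the loading on the component and the GC content had a Pearson r of 0.73. Deviations of a library from the mean over all libraries had an r with GC content across 82 members of 0.52, 0.64 and −0.64 at 4.5DDC, 0.55, 0.60 and 0.28 at 5.5DDC and −0.71, −0.70 and 0.23 at 6.5DDC. Across 11403 other genes the same r was 0.05, 0.28 and −0.32, then 0.27, 0.25 and 0.28, then −0.33, −0.38 and 0.14. Libraries of 1 time point thus took both signs at 4.5DDC and at 6.5DDC. These are descriptions across genes that share a library. Fold changes on log2(FPKM + 1) from 4.5DDC to 6.5DDC had an r with GC content of −0.63 over 80 members and −0.16 over the other genes. In the shorter intervals the r over members was 0.40 and −0.74. On counts over the whole span it was −0.33 over 78 members and −0.14 over the other genes, and with the offsets −0.21 and −0.0051. With the offsets, which were applied to counts and not to FPKM, the median log2 fold change of the members over the span was −0.25. The part of base composition in the lower levels of 6.5DDC was not tested.

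**Figure D4:**
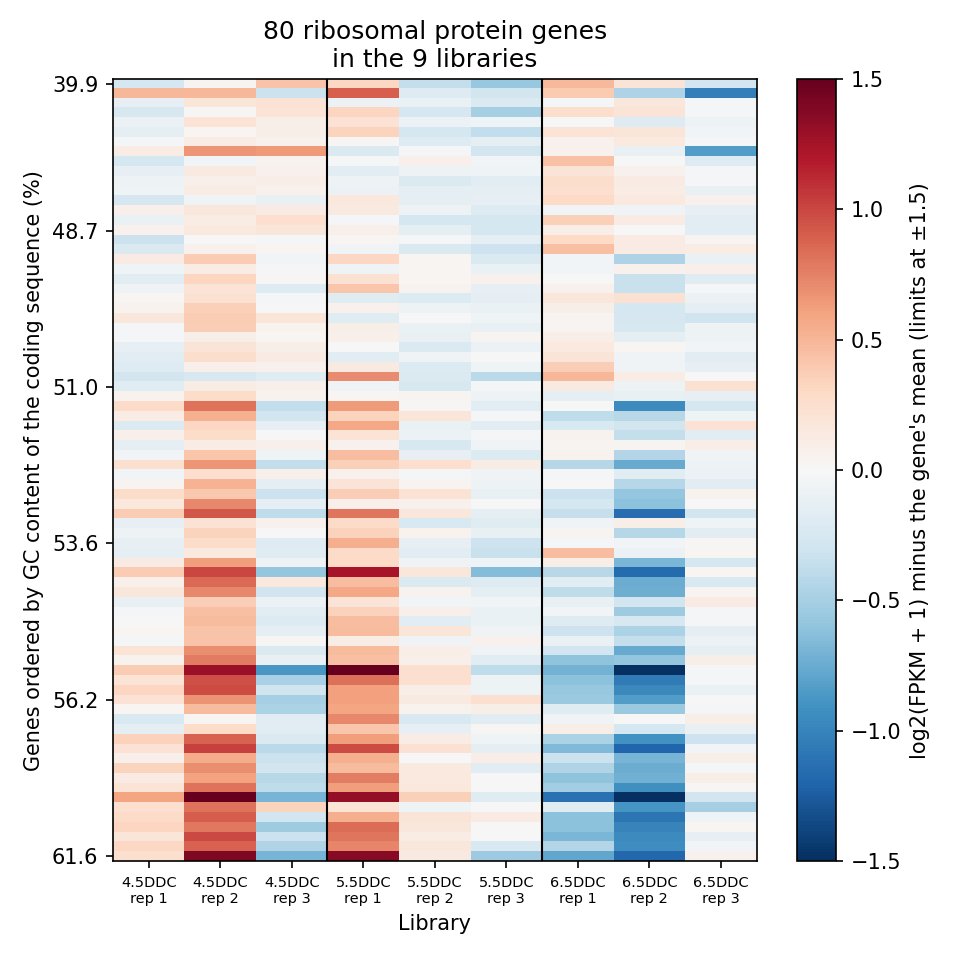
log2(FPKM + 1) of 80 ribosomal protein genes (rows, ordered by GC content from 39.9% at the top to 61.6% at the bottom) in the 9 libraries (columns), minus the mean of each gene. The lower rows are red in replicate 2 of 4.5DDC and replicate 1 of 5.5DDC and blue in replicate 2 of 6.5DDC, and the upper rows vary less. Colours are limited at ±1.5, which 4 values pass.

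Replicate numbers were compared in 1 fit with time point and number. None of 78 members differed by number, against 5.41% of all genes, and 5 members had an unadjusted p under 0.05 in edgeR, against 15.5% of all genes. Leaving out single libraries gave 0 to 2 members, against 1.38% to 8.41% of all genes, and no filter gave 3, against 5.51%. The smallest edgeR adjusted p-values were 0.0664 for Rpl10a, 0.0864 for Rps27, 0.0889 for Rpl39l, 0.206 for Rpl35 and 0.231 for Rpl30.

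In Rps27 the counts sat in a few libraries. It had 5, 5 and 10 counts at 4.5DDC, 1338, 118 and 13 at 5.5DDC and 433, 8 and 6 at 6.5DDC. FPKM were 276, 284 and 295, then 550, 289 and 253, then 474, 363 and 337. Replicate 1 of 5.5DDC, the deepest library, and replicate 1 of 6.5DDC were the highest in both tables, and libraries of 5.5DDC differed by 2.18-fold in FPKM. No window of Rps27 was unique. In Rpl35 the same library of 5.5DDC had 342 counts where the others had 12 to 27, while its FPKM of 172 lay close to the 167 of replicate 2 of 4.5DDC.

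The promoters are described apart from the levels, and their letters were not compared with the loadings or the fold changes. RefSeq promoters on GRCm38.p6, from 250 bases before to 50 after the start, were found for 62 members. A run of at least 8 C or T bases on the strand of the gene, from 20 bases before to 30 after the start, was present in 53.2% of them and in 21.5% of all 27025 genes with a promoter. The letters CCGGAAG, part of the site of ETS factors, stood on either strand in 41.9% and in 9.93%, and TATAAA in 11.3% and 15.7%. A gene with several starts counted if any had the letters. The 27025 genes were not chosen by expression, so no excess in the members is drawn from these shares. The windows below run from 10 bases before to 20 after the start, with the longest run of C or T in capitals, for 6 members described above. They were chosen after the values were seen.
Rpl13a (minus strand, chr7:45128726-45128755): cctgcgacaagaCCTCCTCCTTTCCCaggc
Rplp2 (plus strand, chr7:141447641-141447670): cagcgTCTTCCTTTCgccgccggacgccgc
Rps2 (plus strand, chr17:24720053-24720082): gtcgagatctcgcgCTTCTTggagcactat
Rpl27a (plus strand, chr7:109519185-109519214): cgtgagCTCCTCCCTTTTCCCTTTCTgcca
Rpl23 (minus strand, chr11:97782420-97782449): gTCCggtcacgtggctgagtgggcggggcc
Rpl7l1 (minus strand, chr17:46782637-46782666): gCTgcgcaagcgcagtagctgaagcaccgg
A long run stood at the start of Rpl13a, Rplp2 and Rpl27a and none at the annotated start of Rps2, Rpl23 and Rpl7l1. This describes the letters in the window and not a site in use.

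Genes that build ribosomes fell over the same span. Of 39 biogenesis factors tested 26 (66.7%, beside 18.7% of all genes) fell from 4.5DDC to 6.5DDC and none rose, with a median log2 fold change of −0.76. With the replicate block 27 fell and 1 rose (71.8%, beside 23.2% of all genes). Rrp9 of the U3 particle fell by 2.03 on the log2 scale (SE 0.52, edgeR adjusted p = 0.0254), Rrp12 by 1.73 (SE 0.26, adjusted p = 0.00305) and the rRNA methyltransferase Fbl by 1.58 (SE 0.45, adjusted p = 0.0361). Leaving out single libraries gave between 14 and 30 genes, against 7.56% to 20.9% of all genes. There were 16 without replicate 2 of 4.5DDC (7.61% of all genes) and 14 without replicate 2 of 6.5DDC (7.56%). Rrp9 and Fbl did not pass without replicate 2 of 4.5DDC or without replicate 2 of 6.5DDC. Of 8 subunits and partners of RNA polymerase I 2 fell (25%, beside 18.7% of all genes), Polr1b by 0.82 (SE 0.14, edgeR adjusted p = 0.00623) and Polr1a by 0.73 (SE 0.13, edgeR adjusted p = 0.00620). With offsets for GC content 4 of the 8 fell (50%, beside 23.5% of all genes).

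Of 34 initiation factors 8 fell and 1 rose (26.5%, beside 18.7% of all genes). With offsets for GC content 38.2% changed, beside 23.5% of all genes. Without offsets Eif5a fell by 1.12 (SE 0.23), Eif3b by 0.88 (SE 0.19) and Eif4g1 by 0.77 (SE 0.17), and Eif4a2 rose by 0.59 (SE 0.13). Of 9 elongation factors Eef1d alone fell (11.1%), by 0.80 (SE 0.17), and of 20 other mRNAs with a TOP motif Eef1d and Npm1 fell (10%), the latter by 0.73 (SE 0.15). Of 19 regulators of the TOP mRNAs 3 fell and 1 rose (21.1%, beside the same 18.7%). Larp1 fell by 0.60 (SE 0.14), the translation repressors Eif4ebp1 and Eif4ebp2 by 1.40 (SE 0.39) and 0.40 (SE 0.13), and Sesn1, an inhibitor of mTOR, rose by 0.75 (SE 0.19). On log2(FPKM + 1) Sesn1 alone of these 4 passed in limma, and Eif4ebp2 did not pass with the replicate block. The fall of Eif4ebp1 was 0.89 without replicate 2 of 4.5DDC and did not pass. Of 74 mitochondrial ribosomal protein genes 4 fell and 1 rose (6.76%, beside 18.7% of all genes), Mrpl12 by 1.05 (SE 0.32), Mrpl18 by 0.85 (SE 0.23) and Mrpl4 by 0.84 (SE 0.26) falling and Mrpl24 by 0.45 (SE 0.12) rising. Mrpl12 had −0.69 without replicate 2 of 4.5DDC and did not pass. Eif4g1, Mrpl12, Mrpl18 and Mrpl4 did not pass on log2(FPKM + 1). Of the genes named here as changed, Npm1 alone passed without replicate 2 of 6.5DDC. Fau, a fusion of a ubiquitin-like and a ribosomal protein, had −0.72 (SE 0.72) and did not pass. All lists were counted in the same edgeR fit.

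Markers of cell state were compared over the same span. All 9 proliferation genes fell (100%, beside 18.7% of all genes), with a summed level of 1125 to 1433 FPKM at 4.5DDC and 372 to 704 at 6.5DDC. Of 10 NSC markers Prom1, which encodes the sorted protein, rose and Sox3 fell (20%, beside the same 18.7%), with sums of 2136 to 2598 and 2930 to 3074 FPKM. On log2(FPKM + 1) 1 of the 10 rose and none fell. Of 9 neuron markers Map2 and Syt1 rose (22.2%, beside 18.7% of all genes). The sum of the 9 ran from 226 to 549 FPKM at 4.5DDC and from 362 to 815 at 6.5DDC. It was higher at 6.5DDC for each replicate number, at 226 and 362, 549 and 803, and 382 and 815 FPKM. With the replicate block 4 neuron markers (44.4%, beside 23.2% of all genes) and all 3 endoderm markers tested rose, where without it 0 of the 3 passed. The block called 3 NSC markers and 2 of 5 neural crest markers tested, against 2 and 1 without it. The summed endoderm markers were at 14.5 FPKM in replicate 1 of 6.5DDC and at 0.853 to 3.96 in the other libraries. Sums over the markers of pluripotent cells (8), endoderm (7) and neural crest (8) stayed at or below 20.5 FPKM in every library. Twist1 of the last list rose (1 of 5 tested, 20%). None of these 23 genes was listed at 0 in all libraries, and 14 stayed under 1 FPKM in each. The part of these cell states in the levels of the members was not tested.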

How the data were processed

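RNA from prominin-1-sorted NSCs at 3 time points was analysed in 9 libraries of 11066572 to 25506192 counts, for which 3 counts, the floor of detection, are 0.118 to 0.271 CPM (counting error only). Per the submitters' processing notes the reads were mapped with TopHat2 2.0.4 to GRCm38 and counted with HTSeq 0.6.1, and the authors deposited the result without normalization. The deposited values were handled like expected counts, since 98 of 38197 symbols, none of them members, were not whole, and were rounded. The authors computed the deposited FPKM with Cufflinks 2.1.1. Their voom log2 values were not used here.

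Counts were filtered with filterByExpr, scaled by TMM and tested in edgeR 4.0.16 (R 4.3.3) by quasi-likelihood over all 9 libraries, with Benjamini-Hochberg adjustment over 14742 genes and a threshold of 0.05. FPKM of at least 1 in 3 libraries were tested in limma 3.58.1 as log2(FPKM + 1), on which scale changes of low genes are understated. Alternatives included DESeq2 1.42.0, other scalings and filters, a pseudocount of 0.1, a replicate block, offsets for GC content (lowess, span 0.3) and each library left out. The code was tested on simulated data. Deviations of libraries with the same replicate number correlated at 0.743, 0.386 and 0.452 between 4.5DDC and 5.5DDC and at 0.454, 0.367 and 0.197 between 5.5DDC and 6.5DDC, and every value was over 0.1, so the replicate block, used beside the unblocked main test, pairs these time points.

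Annotation is GENCODE M21 (GRCm38). Members, lists and tests were chosen with earlier results of these data known. Named genes were paralogues, the stalk, the 5S group, members with known roles, members past the threshold, the 5 smallest p-values by replicate number, the 3 highest and lowest levels and, in other lists, up to 3 genes each way. Rpl23, Rpl39, Rps3a1, Rps29, Rpl29, Rpl36, Rpl23a and the members listed by setting were added after their values were seen. A few members and related genes are counted but not reported by name here.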

Additional observations from a re-analysis of the deposited data

How the results depend on the processing

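DESeq2 called 2 members in each shorter interval against 0 in edgeR. For the later interval the median log2 fold change was −0.21 on FPKM with either pseudocount and with the replicate block on FPKM, and −0.075 in the members counted over at least 0.5 of their coding length, beside −0.41. Leaving out single libraries it ran from −0.44 to −0.12. From 4.5DDC to 6.5DDC, where edgeR called 1 member, DESeq2 size factors and a minimum of 10 counts in every library each called 2 (18.5% and 20.5% of all genes), the library total alone and no filter each 4 (19% and 11.2%), limma voom 3 (18%), the replicate block 3 and DESeq2 13. A fit of the 6 libraries compared called 0 (13.4% of all genes). The 27 members counted over at least 0.5 of their coding length leave out Rps2, at 0.0777, so the main fit could call none of them. With offsets for GC content 5 of these 27 were called (18.5%, beside 23.5% of all genes). Leaving out single libraries gave 0 to 7 members, and 14 to 30 biogenesis genes. Offsets for GC content called 8 and, with the replicate block, 9 (30.7% of all genes). These offsets, the block on FPKM and the restriction by length were chosen after seeing the data. For the replicate number no filter called 3 members, offsets called 1 (7.56% of all genes) and leaving out libraries 0 to 2. As a share of summed FPKM the members had 3.84%, 4.01% and 3.44% in place of 0.740%, 0.740% and 0.637% of counts. Causes were not tested.

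Some uncalled fold changes from 4.5DDC to 6.5DDC changed sign. On FPKM with pseudocounts of 1 and 0.1 and with the block, Rps6 had −0.25, Rpl22 −0.20 and Rps27a 0.12. With offsets Rps6 had −0.0086, and Rpl22l1 −0.0047 with offsets and block. Leaving out single libraries, Rps6 ran from −0.25 to 0.51, Rpl22l1 from −0.12 to 0.28, Rps19 from −0.67 to 0.029 and Rpl3 from −0.93 to 0.048. Between 4.5DDC and 6.5DDC deviations of same-numbered libraries correlated at 0.383, −0.0396 and −0.215, so the block there rests on the fit over all time points. Without offsets, it changed no call of a member other than Rpsa and Rpl10a over the whole span. With offsets it added Rpl10, Rpl10a and Rpsa and lost Rpl18 and Rplp1.

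Some tested members have few counts, which limits the precision of their values in counts, among them Rpl36 (3 to 28 per library) and Rpl23a (9 to 57). Rps6, Rps29, Rpl29, Rpl3l, Rpl10l and Rps12l2 have few counts in every library, with the same limit. Of these, Rps6, Rps29 and Rps12l2 have FPKM of 27.4 or more in every library, and the cause of their few counts was not tested. Changes in the 5 members that did not enter the main count test were not detectable in it.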
